A study of Rattus norvegicus with 4 samples.

Results

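Of the 10 genes examined here, all coding for transcription factors of mesenchymal cells or of epithelial-mesenchymal transition, 9 were found by name among the 25810 genes of the count files. They were chosen by name, as Snai1, Snai2, Snai3, Twist1, Twist2, Zeb1, Zeb2, Prrx1, Osr1 and Tcf21, and Snai2 is not analysed here. Their counts were compared between 2 clones of PC12, a line from a tumour of rat adrenal chromaffin cells. wtPC12 is the wild type clone with low REST, and hrPC12 (earlier PC12-27) is a clone with high REST, a repressor of neuronal genes. The labels name no transgene and no treatment for either clone. Each REST level was given by 1 clone in 2 libraries, so the level of REST cannot be told apart from whatever else sets these clones apart, and nothing says whether the 2 libraries of a clone came from separate cultures.

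In epithelial-mesenchymal transition, cells lose junctions and keratins and gain a motile, matrix-producing state. Snail proteins (Snai1, Snai2, Snai3) and the Zeb proteins are zinc finger repressors that bind E-boxes, short DNA sites, in the promoters of epithelial genes. Twist1, Twist2 and Tcf21 are basic helix-loop-helix (bHLH) proteins that pair with E proteins, the products of Tcf3, Tcf4 and Tcf12. Prrx1 is a homeodomain protein of limb and craniofacial mesenchyme, and Osr1 a zinc finger protein of the intermediate mesoderm and of connective tissue progenitors. In the sympathoadrenal lineage, from which chromaffin cells come, Snail, Twist and Zeb2 act during the emigration and maturation of neural crest cells.

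The libraries held between 20975027 and 27246502 reads on genes. Values below are normalized counts, the reads scaled by edgeR's TMM factors to a common library size, given for each library. They are not divided by the length of a transcript, so that levels of different genes are not compared. The fold change (FC) is hrPC12 over wtPC12 as fitted by edgeR, and a gene was called when its adjusted p was under 0.01 and its log2 FC past 2 in either direction. Rest itself had 43.0 and 132 normalized counts in the wtPC12 libraries and 964 and 915 in those of hrPC12 (log2 FC 3.42 with a standard error, SE, of 0.57), and its adjusted p was 0.0115 by edgeR with the Benjamini-Hochberg method, above the threshold. It was called in 6 of 8 other settings that keep 4 libraries (DESeq2 adjusted p = 1.94e-10). Its log2 FC fitted with only 1 wtPC12 library was 4.44 for replicate 1 and 2.80 for replicate 2. Of 9 tested chromaffin markers 7 fell in hrPC12, beside 5.46% of all tested genes. Chgb, a protein of secretory granules, had 687936 and 626776 normalized counts in wtPC12 and 288 and 820 in hrPC12, whereas Ddc, an enzyme of catecholamine synthesis, had a log2 FC of 0.27.

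Osr1 and Zeb2 rose in hrPC12, Zeb1 was moderately higher without passing the log2 FC threshold, Snai1 and Twist1 differed little, and Snai3 was lower. Twist2, Prrx1 and Tcf21 had no more than 2 reads in any library. The study's filter asks for reads in both clones and for a mean normalized count of 5 or more, and 6 of the 9 genes met it. Both thresholds were passed by 2 of the 6, both higher, where 10.3% of the 13726 tested genes were called, 4.84% higher and 5.46% lower. In all 6 the libraries of the clones did not overlap, 5 higher and 1 lower in hrPC12, beside 73.5% of all tested genes (37.9% higher and 35.6% lower). With 2 libraries a clone, the smallest 2-sided p of an exact permutation test on 1 gene is 1 in 3. Their median log2 FC was 0.99, against 0.06 over all tested genes.

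**Figure D1:**
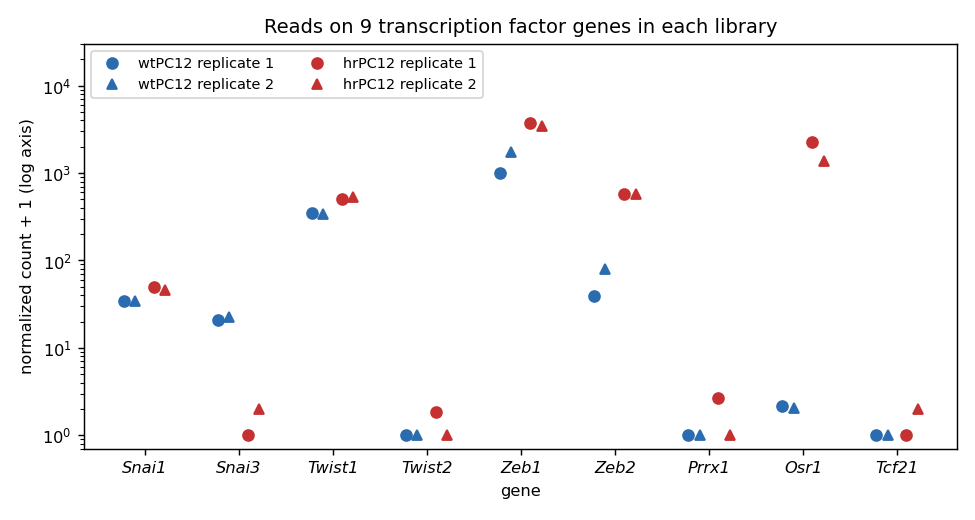
Normalized count plus 1 (log axis) of the 9 genes in each of the 4 libraries, blue for wtPC12 and red for hrPC12, circles for replicate 1 and triangles for replicate 2. Osr1 lies near the bottom in wtPC12 with 1 read per library and above 1000 in hrPC12, and Snai3 shows the opposite order.

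Osr1, whose product keeps progenitors of kidney and connective tissue undifferentiated, had 1 and 1 read in the wtPC12 libraries and 2681 and 1365 in those of hrPC12. The normalized counts were 1.16 and 1.03 in wtPC12 against 2270 and 1381 in hrPC12. Both hrPC12 libraries were thus high, and they differed from each other by a ratio of 1.64. The ratio of the summed reads, scaled for library size, was 1707, with an exact 95% counting interval from 472 to 14098. This interval covers counting error only and not the difference between libraries, because the reads of a clone were summed. The reads carry no molecular identifiers. The fitted log2 FC was 10.55 (SE 0.53), with an adjusted p of 0.00046 by edgeR (Benjamini-Hochberg). With so few reads in wtPC12 its size depends on the prior count, and it was 9.21 with a prior count of 2.

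Replicate 1 of hrPC12 also exceeded replicate 2 in the genes around Osr1. The 10 nearest tested genes on each side were taken in the RefSeq order of the rat assembly GRCr8. Only genes with a mean of at least 50 normalized counts in hrPC12 were used. All 20 were higher in replicate 1, with a median log2 ratio of 0.85, and the log2 ratio of Osr1 itself was 0.72. Over all 7734 placed genes with at least 50 normalized counts in hrPC12 that median was −0.03. Around the other 5 tested genes the medians lay between −0.07 and 0.02, with 5 to 11 of 20 neighbours higher in replicate 1. Differences of like size were found in genes elsewhere, singled out after their values were seen. Slc9a8 near Snai1 had a log2 ratio of 1.07, Golga1 near Zeb2 0.90 and Sypl1 near Twist1 0.83. Hdac1 and Stat3 had ratios of 1.80 and 1.78. The difference was thus not limited to the genes around Osr1. Without hrPC12 replicate 1 the log2 FC of Osr1 was 10.14, and without hrPC12 replicate 2 it was 10.82. Of its 20 neighbours 1 was called between the clones, beside 10.3% of all tested genes. The median log2 FC of these neighbours was 1.28, and around the other 5 tested genes it lay between −0.55 and 0.14. Genes low in hrPC12 were left out of all these sets, which favours higher values.

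**Figure D2:**
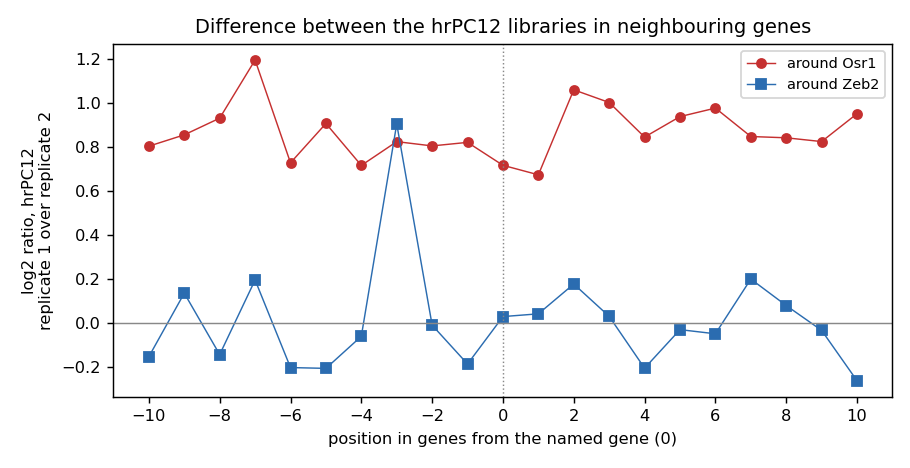
Log2 ratio of hrPC12 replicate 1 to replicate 2 (vertical axis) around Osr1 (red) and Zeb2 (blue), in gene order with the named gene at 0. Shown are the 10 tested genes on each side with at least 50 normalized counts in hrPC12. The genes around Osr1 all lie above 0, with a median of 0.85, and those around Zeb2 scatter about −0.03.

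Zeb2, a repressor that also serves the development of neural crest and of the nervous system, had 38.4 and 78.3 normalized counts in wtPC12 and 580 and 569 in hrPC12. The hrPC12 libraries agreed closely, while wtPC12 replicate 2 held 2.04 times the count of replicate 1, and the clones did not overlap. Zeb2 rose by a log2 FC of 3.29 (SE 0.42), or 9.79-fold, and the adjusted p was 0.00543 by edgeR (Benjamini-Hochberg). Leaving out wtPC12 replicate 1 gave 2.84, and leaving out replicate 2 gave 3.90, which was not called (adjusted p 0.0160 by edgeR). Osr1 likewise lost its call without wtPC12 replicate 2 (log2 FC 10.47, adjusted p 0.0200 by edgeR), as did all other genes.

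Zeb1, its paralog and a direct repressor of E-cadherin, had 991 and 1739 normalized counts in wtPC12 and 3745 and 3498 in hrPC12. Every hrPC12 library lay above both wtPC12 libraries, by less than for Zeb2. The log2 FC was 1.41 (SE 0.30, 95% interval from 0.63 to 2.18), or 2.65-fold, with an adjusted p of 0.0243 by edgeR (Benjamini-Hochberg), so that Zeb1 passed neither threshold. DESeq2 gave an adjusted p of 0.000324 and a log2 FC of 1.37, again short of 2. The wtPC12 libraries differed by a ratio of 1.75 for Zeb1, and the part of that difference in these values was not tested. An adjusted p under 0.05 was found for 32.4% of all tested genes and for 4 of the 6 genes here, Snai3, Zeb1, Zeb2 and Osr1.

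The balance of the 2 Zeb genes can be read within a library, where no scaling enters. Of the reads on Zeb1 and Zeb2 together, those on Zeb2 made up 3.73% (33 reads, exact 95% interval from 2.58 to 5.20) and 4.31% (76 reads, 3.41 to 5.36) in the wtPC12 libraries. In hrPC12 the share was 13.4% (685 reads, 12.5 to 14.4) and 14.0% (562 reads, 12.9 to 15.1). These intervals cover counting error only. The share was higher in both hrPC12 libraries than in both wtPC12 libraries. An antisense RNA, Zeb2-as1, overlaps Zeb2 in the RefSeq annotation, and because the library kit does not mark strand its reads could not be told apart from those of Zeb2. Zeb1 likewise overlaps 2 other annotated loci.

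**Figure D3:**
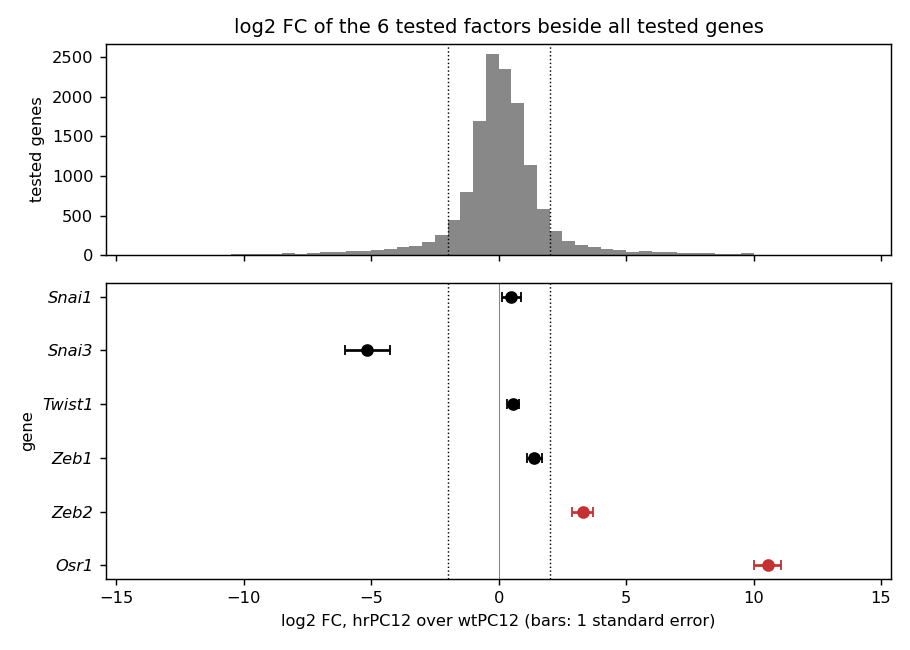
Upper panel, number of tested genes by log2 FC (hrPC12 over wtPC12) in bins of equal width, and lower panel, log2 FC of the 6 tested factors with 1 standard error, red where both thresholds were passed, dotted lines at −2 and 2. Osr1 (10.55) and Zeb2 (3.29) lie to the right of the threshold and Snai3 (−5.14) to the left, where it missed the adjusted p threshold.

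Snai1, the founding Snail repressor, had 33.7 and 33.0 normalized counts in wtPC12 and 49.1 and 45.5 in hrPC12. Both hrPC12 libraries were higher by a small step. The log2 FC of 0.50 (SE 0.36, adjusted p = 0.321 by edgeR, Benjamini-Hochberg) had a 95% interval from −0.42 to 1.43, which includes 0.

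Twist1, the bHLH factor of cranial mesenchyme, had 352 and 340 normalized counts in wtPC12 and 503 and 530 in hrPC12. Here too the libraries of a clone lay close together and hrPC12 was higher. The log2 FC was 0.58 (SE 0.23, 95% interval from −0.01 to 1.17), and the adjusted p was 0.114 by edgeR (Benjamini-Hochberg). A log2 FC of 2 lay outside the interval of either gene.

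Snai3, the least studied Snail gene, had 17 and 21 reads in the wtPC12 libraries and 0 and 1 in those of hrPC12. The normalized counts were 19.8 and 21.6 against 0 and 1.01, so that the gene was read in wtPC12 and at the limit of detection in hrPC12. The ratio of the summed reads of wtPC12 to hrPC12, scaled for library size, was 45.0, with an exact 95% counting interval from 7.61 to 1825. The fitted log2 FC was −5.14 (SE 0.89), or −3.20 with a prior count of 2, and the adjusted p was 0.0132 in edgeR's test (Benjamini-Hochberg), just above the threshold of 0.01. It was under that threshold with edgeR's RLE factors (adjusted p = 0.00489) and not with DESeq2 (adjusted p = 0.0145), within a range from 0.00489 to 0.0616 over all alternatives, so its call rests on the setting. Without hrPC12 replicate 1, the library with 0 reads, the log2 FC was −4.19 and Snai3 was called (adjusted p = 0.00841 by edgeR).

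The remaining factors were not detected above the floor of 3 reads, which is the limit that a count of 0 allows and corresponds to between 2.54 and 3.49 normalized counts. Twist2, the dermal relative of Twist1, had 1 read in hrPC12 replicate 1. Prrx1 had 2 reads in the same library. Tcf21, a bHLH factor of visceral and cardiac mesenchyme, had 1 read in hrPC12 replicate 2. All other libraries held 0 reads of these 3 genes, and no fold change is given for them.

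Promoter sequences are shown for Zeb2, which rose, for Snai1, which did not pass the test, and for Epcam and Cldn7, epithelial genes that fell, to compare the E-boxes of each window. They are the 250 bases before the annotated gene start in RefSeq (GRCr8), given 5′ to 3′ on the gene's strand, with every E-box CANNTG in capitals. The windows lie at chr3:49754324-49754573 (Zeb2, minus strand), chr3:176667226-176667475 (Snai1, plus strand), chr6:12649679-12649928 (Epcam, minus strand) and chr10:55188420-55188669 (Cldn7, plus strand).
Zeb2: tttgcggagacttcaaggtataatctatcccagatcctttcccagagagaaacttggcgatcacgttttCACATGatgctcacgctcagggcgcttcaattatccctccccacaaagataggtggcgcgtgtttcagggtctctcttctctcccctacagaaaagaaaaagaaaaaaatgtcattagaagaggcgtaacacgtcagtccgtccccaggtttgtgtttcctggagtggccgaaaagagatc
Snai1: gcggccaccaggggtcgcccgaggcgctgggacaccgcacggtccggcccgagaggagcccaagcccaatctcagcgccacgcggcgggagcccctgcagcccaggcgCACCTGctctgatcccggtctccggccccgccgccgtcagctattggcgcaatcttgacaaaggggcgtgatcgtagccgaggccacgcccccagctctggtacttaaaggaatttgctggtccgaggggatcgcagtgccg
Epcam: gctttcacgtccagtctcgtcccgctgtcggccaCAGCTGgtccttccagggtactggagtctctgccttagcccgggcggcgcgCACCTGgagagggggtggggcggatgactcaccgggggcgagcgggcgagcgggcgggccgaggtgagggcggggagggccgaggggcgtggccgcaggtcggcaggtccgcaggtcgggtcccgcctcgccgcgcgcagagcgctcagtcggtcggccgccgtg
Cldn7: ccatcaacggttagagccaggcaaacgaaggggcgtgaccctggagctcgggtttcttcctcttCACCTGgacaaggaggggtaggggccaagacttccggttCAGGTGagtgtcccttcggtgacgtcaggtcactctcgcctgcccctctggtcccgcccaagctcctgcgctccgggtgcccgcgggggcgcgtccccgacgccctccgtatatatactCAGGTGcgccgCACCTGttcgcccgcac

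The form CAGGTG, read on the other strand as CACCTG, is the E-box that Snail and Zeb proteins are known to bind, and it is 1 form of CANNTG. Cldn7 holds it 4 times, Epcam once beside a CAGCTG, and Snai1 once, as CACCTG from base 142 to base 137 before the start. The window of Zeb2 holds a CACATG and no CAGGTG on either strand. RefSeq windows were found for 8 of the 10 factors, 5 of them at the annotated start of the gene, and of these 5 Snai1 holds the form. Among all 33469 windows of this length, at whatever distance from an annotated gene start, 15.9% do, and 65.5% hold any CANNTG. Of the epithelial genes listed for this comparison 7 had a window at the gene start and 5 of them hold the form, beside 2 of 5 mesenchymal genes. The epithelial genes were listed as targets of such factors, so this share is not independent of their choice. Not all of them were tested between the clones. Windows away from the annotated start, by 502 bases for Zeb1 and 1306 for Prrx1, are left out of the counts for the factors and the listed genes. A match of letters is a description and no evidence of binding. The window of Osr1 lies 8963 bases from the annotated start and is left out too.

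**Figure D4:**
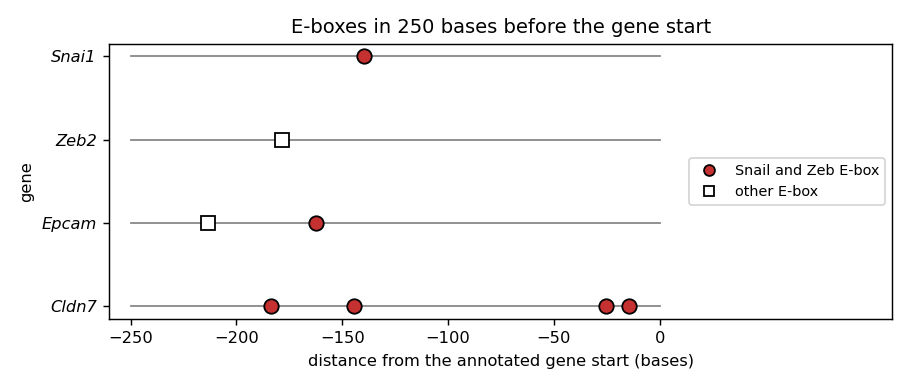
Position of E-boxes (horizontal axis, bases from the annotated gene start) in the 250 bases before Snai1, Zeb2, Epcam and Cldn7, on the rat assembly GRCr8. Red circles are the form bound by Snail and Zeb proteins and open squares other forms, and Cldn7 has 4 red circles where Zeb2 has none.

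Of 22 genes of the epithelial state listed, 17 were tested, 8 fell past both thresholds, and the median log2 FC was −1.41. By comparison 5.46% of all tested genes were called lower. Ovol2 and Ovol1, zinc finger factors that repress Zeb1 and keep cells epithelial, had log2 FC of −6.73 and −2.60. In the case of Ovol2, 2 and 2 reads remained in hrPC12 of 204 and 177 in wtPC12. Grhl2, another factor opposed to Zeb1, fell from 2851 and 2792 normalized counts to 524 and 575 (log2 FC −2.36). Pkp3, a desmosome gene, fell by 6.54 on the log2 scale.

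Epcam, an epithelial adhesion molecule, had 8573 and 6527 normalized counts in wtPC12 and 709 and 724 in hrPC12 (log2 FC −3.40, SE 0.22). The claudin Cldn7 had 4365 and 3197 against 703 and 784 (log2 FC −2.35, SE 0.23). For both, the wtPC12 libraries stood far above those of hrPC12. Cdh1, which codes for E-cadherin and was picked with its values known, had 271 and 269 normalized counts in wtPC12 and 105 and 104 in hrPC12. Its log2 FC of −1.37 (SE 0.27) did not pass, with an adjusted p of 0.0198 by edgeR (Benjamini-Hochberg). Of the abundant genes that did not pass, Jup (−0.52), Tjp3 (−0.85) and St14 (−0.70) had negative log2 FC, while Dsp, the desmoplakin gene, had 1131 and 1996 normalized counts in wtPC12 and 3274 and 2982 in hrPC12. The only other tested gene of the list above wtPC12 was Krt19, singled out after its values were seen, with 3 and 3 reads in wtPC12 and 34 and 27 in hrPC12 (adjusted p = 0.0122 by edgeR).

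Of 22 mesenchymal genes listed, 16 were tested, 8 rose in hrPC12 and 1 fell past both thresholds (4.84% and 5.46% of all tested genes), and the list's median log2 FC was 3.07. Col3a1, a fibrillar collagen, had 103.5 and 85.5 normalized counts in wtPC12 and 83801 and 88143 in hrPC12. Vim, the intermediate filament of mesenchymal cells, had 3 and 2 reads in wtPC12 and 2326 and 2153 in hrPC12. The ratio of its summed reads, scaled for library size, was 756 (exact 95% counting interval from 324 to 2329). The matrix genes Sparc, Col1a2 and Fn1 and the receptor gene Pdgfrb rose as well, with fitted log2 FC between 4.97 and 7.21, although Fn1 and Col1a2 each had 1 wtPC12 library at 0 reads. Cdh2, which codes for N-cadherin, had a log2 FC of 2.51 and an adjusted p of 0.0111 by edgeR (Benjamini-Hochberg), and Thy1 and Loxl2 had log2 FC of −0.99 and 0.18.

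Other mesenchymal genes were singled out after their values were seen. Fbn1, the fibrillin of elastic microfibrils, fell from 489 and 1038 normalized counts to 38.1 and 43.5 (log2 FC −4.22). Dcn, the decorin gene of fibroblasts, had 31 and 21 reads in wtPC12 and 3 and 4 in hrPC12. Pdgfra had between 4 and 8 reads in each library, and Cdh11 had 2 reads in all, in hrPC12 replicate 1. Postn had 0 reads in wtPC12 and 51 and 44 in hrPC12, at least 13.3-fold more against 3 reads per library.

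**Figure D5:**
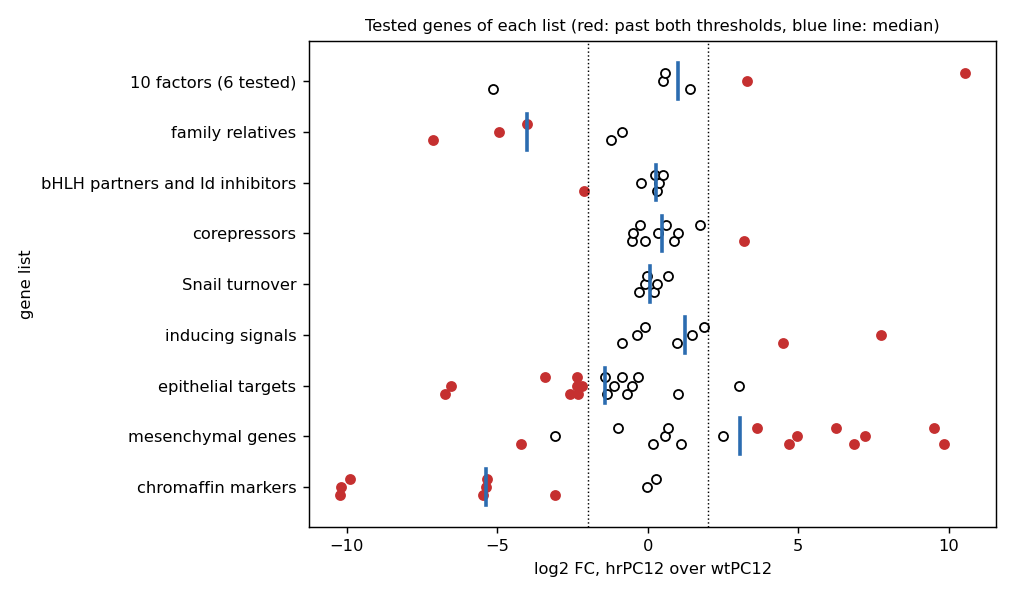
Log2 FC (hrPC12 over wtPC12, horizontal axis) of the tested genes of each list, red where both thresholds were passed and open where not, with the list's median in blue and dotted lines at −2 and 2. Epithelial genes centre on −1.41 and mesenchymal genes on 3.07, and the relatives of the factors all lie below 0.

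Of 12 relatives of the factors from the same protein families, 5 were tested, 3 fell in hrPC12 past both thresholds, beside 5.46% of all tested genes called lower. Scrt1 and Scrt2, the Scratch members of the Snail superfamily that are expressed in neurons, had 611 and 876 and 90.7 and 116 normalized counts in wtPC12. In hrPC12 they had 3.39 and 7.08 and 2.54 and 4.05, log2 FC of −7.15 and −4.94. Hand1, a bHLH factor of the heart and the sympathoadrenal lineage, fell from 5188 and 4449 to 266 and 326 (log2 FC −4.03). Its relative Hand2 (log2 FC −0.85) and the tendon factor Scx (−1.23) did not pass. Of the others, Osr2 and Ferd3l had 0 reads in every library, Prrx2, Msc, Tcf23 and Tcf24 had at most 2, and Tcf15 had 4 and 5 in wtPC12 and 0 in hrPC12. Snai3 and both Scratch genes were thus read in wtPC12 and at or near the limit of detection in hrPC12.

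Of 7 genes for partners and inhibitors of the bHLH factors, 6 were tested and 1 fell, beside 10.3% of all tested genes called in either direction. That was Id1, an inhibitor that binds E proteins and keeps them from DNA, with 14818 and 8720 normalized counts in wtPC12 and 2495 and 2975 in hrPC12 (log2 FC −2.11, SE 0.31, adjusted p = 0.0080 by edgeR, Benjamini-Hochberg). Its call was lost without wtPC12 replicate 1, wtPC12 replicate 2 or hrPC12 replicate 1. The E protein genes Tcf3 (log2 FC 0.49) and Tcf12 (0.23) and the inhibitor genes Id2 (0.38) and Id3 (−0.22) did not pass.

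Of 11 corepressor genes, whose products Snail and Zeb proteins recruit, 10 were tested and 1 rose, a share near the 10.3% of all tested genes. Ajuba, a LIM protein that Snail recruits, listed in the counts by its older symbol Jub, had 150 and 176 normalized counts in wtPC12 and 1396 and 1636 in hrPC12 (log2 FC 3.21). Ctbp1 and Ctbp2, the partners of the Zeb proteins, had log2 FC of −0.52 and 0.34. Smarca4 had −0.09, and Hdac2 had 1765 and 1698 normalized counts in wtPC12 and 4354 and 2547 in hrPC12 without passing. None of the 6 genes for turnover of Snail protein passed, and 0 had an unadjusted p under 0.05 in edgeR's test, among them the kinase gene Gsk3b (0.22) and the ubiquitin ligase genes Fbxl5 (−0.10) and Fbxo11 (0.66). DESeq2 called none of these 6 either.

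Among 10 genes of inducing signals 8 were tested, and 2 rose, beside 4.84% of all tested genes. Tgfb2, a ligand that induces the transition in many epithelia, had 44.2 and 51.5 normalized counts in wtPC12 and 10054 and 10520 in hrPC12 (log2 FC 7.74). Smad3, which carries that signal to the nucleus, had 25.6 and 53.6 against 869 and 939 (log2 FC 4.50). The receptor gene Tgfbr1 had a log2 FC of −0.09, and Tgfbr2 had 0 reads in each library. Stat3 (1.86, adjusted p = 0.0130 by edgeR), Tgfb1 (−0.86) and Hif1a (−0.37) did not pass.

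Markers of other cells were at or near 0. Of 8 leukocyte markers 4 were at the floor in both clones. Ptprc, which marks all leukocytes, had 1 read in all, and the summed level was 38.1 to 45.4 normalized counts in wtPC12 and 86.3 to 99.2 in hrPC12, most of it Cd68. Endothelial markers summed to 29.1 to 34.0 and 61.7 to 70.3, most of it Tek, with at most 2 reads of Pecam1 in a library. Of 6 Schwann and glial markers, Sox10 had 0 reads in each library, while Fabp7 had 0 in wtPC12 and 118 and 78 in hrPC12, at least 27.2-fold more against 3 reads per library. From this list 0 passed in edgeR's test or in DESeq2, and 1 passed with every gene with at least 1 read and with edgeR's filterByExpr. Adrenal cortex markers summed to 87.6 to 88.4 and 49.6 to 70.3, with 0 reads of Cyp17a1. None of the 5 tested leukocyte, endothelial and adrenal cortex markers passed in edgeR's test or in DESeq2, and 2 had an unadjusted p under 0.05, Cd68 and Tek. The part of these markers of other cells in the results above was not tested.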

How the data were processed

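RNA of 2 libraries per clone was sequenced as paired-end reads on an Illumina HiSeq from TruSeq v2 libraries. Alignment by the authors was to the rat build rn4 (TopHat2 2.0.4 and HTSeq 0.5.3 in the submitters' processing notes) and they deposited raw read counts per gene name and library, genes without reads included. Totals of reads outside genes were left out, and reads on genes made up 37.9% to 41.3% of the reads accounted for. The authors' table of their own DESeq comparison (means, fold changes and p-values) was not used.

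Counts were analysed in R 4.3.3 with edgeR 4.0.16. Genes with a mean of at least 5 normalized counts (TMM) and reads in both clones were compared with the quasi-likelihood test (glmQLFit, legacy option on, and glmQLFTest) with p-values adjusted by Benjamini-Hochberg over the 13726 genes, and with the thresholds of the study. Standard errors were derived from the log2 FC and the F statistic. Run on simulated data (13726 genes, 200 of them shifted 16-fold), the test found 200 and called 1 other gene. Symbols absent from the counts were matched by RefSeq synonyms, which placed 2 genes. Replicate numbers follow the order of deposition and only name the libraries. The members and the gene lists, from general knowledge, were chosen with earlier results of these data known. All 10 factors are named, and of each list up to 6 called genes with the largest log2 FC and up to 4 abundant genes that did not pass, except that some genes of the lists are not reported here. The alternatives were RLE factors, library totals, other filters, DESeq2 1.42.0, the legacy option off, a prior count of 2, a threshold of 0.05 for the adjusted p, and leaving out libraries 1 at a time. In the last case the lone library of a clone is assumed to vary like the others.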

Additional observations from a re-analysis of the deposited data

How the results depend on the processing

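The call of Zeb2 and of Osr1 as higher held under each of the 8 alternatives that keep 4 libraries and without wtPC12 replicate 1, hrPC12 replicate 1 or hrPC12 replicate 2. Without wtPC12 replicate 2 edgeR's test called 0 genes of any kind (smallest adjusted p 0.0134), and 2203 genes past a log2 FC of 2, of them 3 of the factors, had an unadjusted p under 0.05. DESeq2 was not run on 3 libraries. With each library left out in turn, the factors called ranged from 0 to 3, those called higher from 0 to 2 and those called lower from 0 to 1. All genes called ranged from 0 to 1821, the higher ones from 0 to 962, the lower ones from 0 to 859, and the genes of the other lists from 0 to 34. The count of factors called lower, 0 in the setting used, was 1 with RLE factors, library totals, every gene with at least 1 read, filterByExpr, the legacy option off and an adjusted p under 0.05, in each case Snai3. All genes called higher numbered 1127 with every gene tested and 1088 with an adjusted p under 0.05, against 665. No log2 FC of a factor changed sign. Without hrPC12 replicate 2, Snai3 had no reads left in hrPC12 and was not tested. In the list counts 132 of the values with another setting lay within 1.5 times the count used and 12 did not. No paired analysis was possible because the labels pair no library of one clone with one of the other. At this depth Twist2, Prrx1 and Tcf21 cannot be told from 0.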

Other observations

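The 2 wtPC12 libraries differed in Zeb1, Zeb2 and Rest more than in the other factors with at least 30 normalized counts in wtPC12. The ratio of replicate 2 to replicate 1 was 1.75 for Zeb1, 2.04 for Zeb2 and 3.06 for Rest, and 0.977 for Snai1 and 0.964 for Twist1. Ratios at least as high were found in 12.1%, 7.95% and 2.58% of 11648 genes. Genes of large span had higher ratios in general. The median was 1.42 in 963 genes that span at least 100 kb on GRCr8 and 0.769 in 944 genes of under 5 kb. Zeb1 and Zeb2 span 167 and 130.3 kb, Rest 20.04 kb, Snai1 4.49 kb and Twist1 2.00 kb. The median log2 FC between the clones was 0.07 in the former genes and −0.39 in the latter. The part of this difference in the values of Zeb1 and Zeb2 was not tested.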
